A study of Mus musculus with 24 samples.

Results

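The comparison described here was between kidneys of mice with 1 altered copy of Nbl1 (labelled HET) and with none (labelled WT) within the samples whose titles carry the mark for batch 2, 7 HET and 5 WT libraries out of 24 in the series. The other 12 libraries, 6 HET and 6 WT, carry the mark for batch 1 and were left out except where they are named. All mice were males with X-linked Alport syndrome (XLAS) on the B6 background, whole kidneys were taken at 15 weeks of age, and the titles name the cross as Nbl1xCol4a5, so the Alport allele was shared by both genotypes. The labels do not say how the Nbl1 allele was made, and no kidneys without the Alport allele were part of the comparison. RNA was extracted with 1 kit and sequenced from 1 mRNA library kit, and each library came with its own animal number. The animal number in the title of HET replicate 2 is not the one in its library name, and the column used here is the one that carries the library name. The series title frames the question as whether a partial reduction of Nbl1 eases kidney disease.

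NBL1 is a secreted protein of the DAN family that binds bone morphogenetic proteins (BMPs) and keeps them from their receptors. In Alport syndrome the collagen IV network of the glomerular basement membrane is defective, the filter leaks protein, and the tubules and interstitium are damaged over time. BMP signals are known to act on podocytes, tubules and matrix-forming cells of the kidney, with the Id genes among their direct targets.

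The 12 libraries held 36380404 to 50746710 counts each, with medians of 40510760 in HET and 42637654 in WT, a difference within the spread (exact two-sided permutation p = 0.226). Each library detected 23953 to 25379 genes. Kidney markers were strong in all of them: uromodulin (Umod), made in the thick ascending limb, stood at 1780 to 2455 TPM (a unit of transcript abundance scaled by gene length and library), and the podocyte protein nephrin (Nphs1) at 9.92 to 15.07 TPM. The adrenal enzyme gene Cyp11b1 had at most 1 count in a library. The fat cell gene Plin1 ranged from 42 to 850 counts, so the amount of fat RNA differed between libraries.

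Nbl1 was lower and its neighbour Htr6 higher in HET kidneys. Both lie on the minus strand of chromosome 4 in GRCm38, Nbl1 (ENSMUSG00000041120) at 139082284 to 139092993 and Htr6 (ENSMUSG00000028747), a serotonin receptor gene, at 139061108 to 139075570. Htr6 lies downstream of Nbl1, with 6713 bases between them. The bases in front of the annotated starts are shown because these are the genes of the locus that separated the genotypes. They come from the RefSeq promoter table of GRCm38.p6 and are written 5′ to 3′ on the minus strand. Capitals mark the GC box GGGCGG or its reverse complement.
Nbl1, chr4:139092994-139093220: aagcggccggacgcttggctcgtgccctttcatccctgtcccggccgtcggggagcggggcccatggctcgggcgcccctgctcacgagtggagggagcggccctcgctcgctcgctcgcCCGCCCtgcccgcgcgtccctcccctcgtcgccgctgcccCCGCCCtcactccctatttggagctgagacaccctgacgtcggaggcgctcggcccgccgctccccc
Htr6, chr4:139075571-139075820: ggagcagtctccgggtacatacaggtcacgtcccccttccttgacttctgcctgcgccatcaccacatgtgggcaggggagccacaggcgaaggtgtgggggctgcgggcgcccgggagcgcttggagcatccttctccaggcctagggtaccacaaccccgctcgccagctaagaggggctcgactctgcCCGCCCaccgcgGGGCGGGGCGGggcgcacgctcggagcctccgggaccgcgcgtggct
Both windows were rich in G and C, at 75.8% over 227 bases for Nbl1 and 70.8% over 250 bases for Htr6, against a median of 52.0% over 27025 promoters of the same 250 bases. They held 30 and 23 CpG dinucleotides, where the median promoter held 6. The GC box occurred 2 times in front of Nbl1 and 3 times in front of Htr6, of which 2 overlapped, and 32.9% of all promoters held it on either strand. Neither window held TATAAA on either strand, which 13% of promoters did. These matches describe the sequence only.

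Levels were expressed as CPM, counts scaled to a common library size with the trimmed mean of M values (TMM). Nbl1 stood at 4.70, 7.49, 4.18, 3.98, 4.29, 5.88 and 6.25 CPM in HET replicates 1 to 7. In WT replicates 1 to 5 it stood at 10.4, 9.37, 10.7, 14.6 and 6.67 CPM. HET replicate 2 lay above WT replicate 5, so the groups overlapped by this pair, and all other HET libraries lay below all WT libraries. On the log2 scale HET minus WT came to -0.97 (standard error, SE, 0.19). An exact two-sided permutation test of the genotype labels gave p = 0.00379, or 0.0114 after Benjamini-Hochberg adjustment over the 6 single measures of this comparison. Over all 17955 genes tested, Nbl1 did not pass edgeR's quasi-likelihood test (unadjusted p 0.000218, adjusted p 0.467). It passed in DESeq2 at an adjusted p of 0.000499.

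Htr6 had 20, 41, 34, 12, 25, 24 and 49 counts in HET replicates 1 to 7. WT replicate 3 had 2 counts and the other 4 WT libraries had 0, and a count of 0 allows up to 3 counts in a library. Every HET library lay above every WT library. The 205 HET counts against 2 WT counts correspond to a ratio of 78.3 after division by the group totals, with a 95% exact counting interval of 21.4 to 651 that covers counting error only. The fitted log2 fold change was 5.98 (SE 0.57), a value that depends on the prior count because 4 WT libraries were at 0. Htr6 passed edgeR's quasi-likelihood test at an adjusted p of 0.000120. Because WT libraries had at most 2 counts, the gene passed the filter on low counts only through the HET libraries, where it was high. The table gives 1 count per gene and whether the counting used strand is not stated, so Htr6 transcripts cannot be told apart from RNA that continues from Nbl1 or from the other strand. The exact permutation p was 0.00126, the smallest that 792 assignments of 7 and 5 can give. The level in HET was low, at 0.21 to 0.73 TPM, a scale that corrects for transcript length, where Nbl1 in the same libraries stood at 3.21 to 6.73 TPM.

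**Figure D1:**
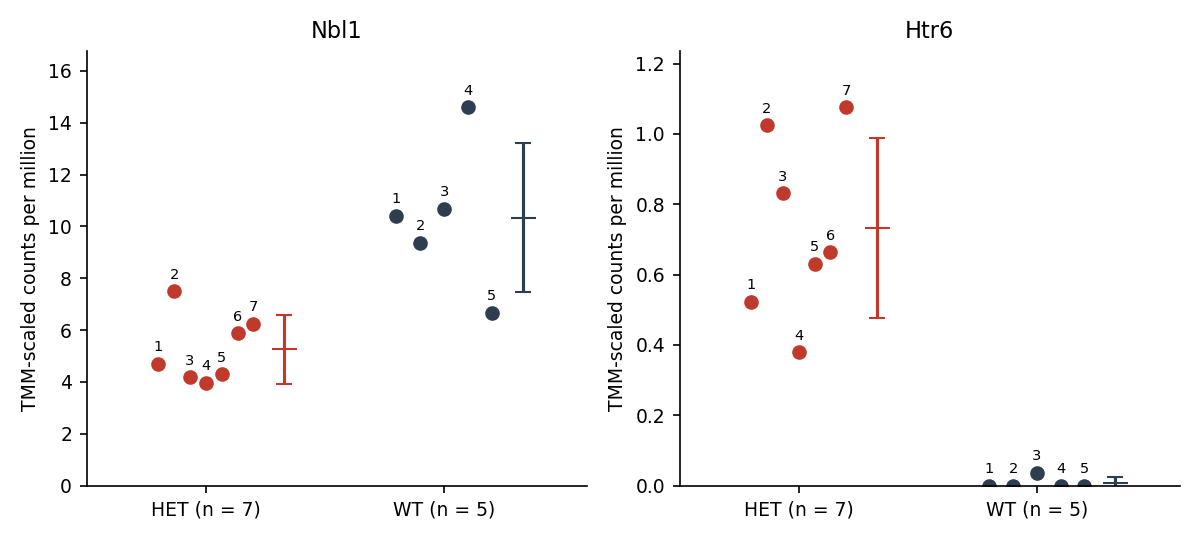
Nbl1 (left) and Htr6 (right) in the 12 kidneys, as TMM-scaled CPM on the vertical axis. Each point is 1 library with its replicate number, and the bars give the group mean and SD. For Nbl1 only HET 2 and WT 5 cross between the groups, and for Htr6 the 7 HET libraries lie at 0.379 to 1.08 CPM while WT 3 is the only WT library above 0.

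Besides Nbl1 and Htr6, most genes around the locus differed little between the genotypes. Of 31 annotated genes that start within 500 kb of the start of Nbl1, 17 passed the filter on low counts. Of the 15 besides Nbl1 and Htr6, 4 had a log2 fold change above 0 and 11 below, over a range of -0.56 to 0.08 with a median of -0.04. None was called by edgeR or DESeq2, and 2 had an unadjusted p under 0.05, both lower in HET. Over all genes tested, 4.07% were higher and 4.2% lower at that p. The secreted phospholipase gene Pla2g5 stood at -0.37 (SE 0.12, edgeR adjusted p 0.564). Emc1, for a subunit of the complex that inserts membrane proteins into the endoplasmic reticulum, stood at -0.12 (SE 0.04, edgeR adjusted p 0.585). Gm45533, annotated antisense just in front of Htr6, had 0 counts in both groups, although whether the counting used strand is not stated in any source used here. Among 10 tested serotonin receptor and handling genes Htr6 was the only 1 with an unadjusted p under 0.05. Next by p came the ion channel receptor gene Htr3a, at 1.93 to 2.85 CPM in HET and 1.61 to 2.37 CPM in WT (log2 fold change 0.27, SE 0.15).

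Col4a5, the gene of the Alport allele, was present at 16.3 to 23.6 CPM in HET and 21.2 to 26.0 CPM in WT. The ranges overlapped, and the exact permutation p was 0.0934 (0.140 after adjustment over the 6 measures). The edgeR estimate was -0.18 (SE 0.08, adjusted p 0.604).

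Beyond Htr6, few genes separated the genotypes. The edgeR quasi-likelihood test called 1 of 17955 genes at an adjusted p under 0.05, which is 0.00557%. DESeq2 on the same counts called 27, or 0.15%, of which 18 were higher and 9 lower in HET, and Nbl1 was among the latter. With 1 library left out in turn DESeq2 called 95 genes without HET replicate 2, 75 without HET replicate 1, 14 without HET replicate 3, 12 without HET replicate 5 and 11 without HET replicate 6. Without WT replicate 1, 2 or 4 it called 9, 5 and 13, and without any other library 18 to 38. The single edgeR call was joined by 1 other without HET replicate 1, HET replicate 2 or WT replicate 3, and by 2 others without HET replicate 4. Htr6 received no adjusted p from DESeq2, which removed 2440 low genes from adjustment. At an unadjusted p under 0.05, edgeR's quasi-likelihood test had 731 genes higher in HET, 4.07% of those tested, and 754 lower, 4.2%. In 46 genes (0.256%) every HET library lay above every WT library by CPM, and in 48 genes (0.267%) every HET library lay below. Of the 27 genes that DESeq2 called, 14 were of these 2 kinds. Overlap of the groups is given by CPM unless TPM is named. By TPM some of the 14 overlapped, among them Dynlt1b, Dnajb11, Mfrp, Cyp51 and mt-Nd6.

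**Figure D2:**
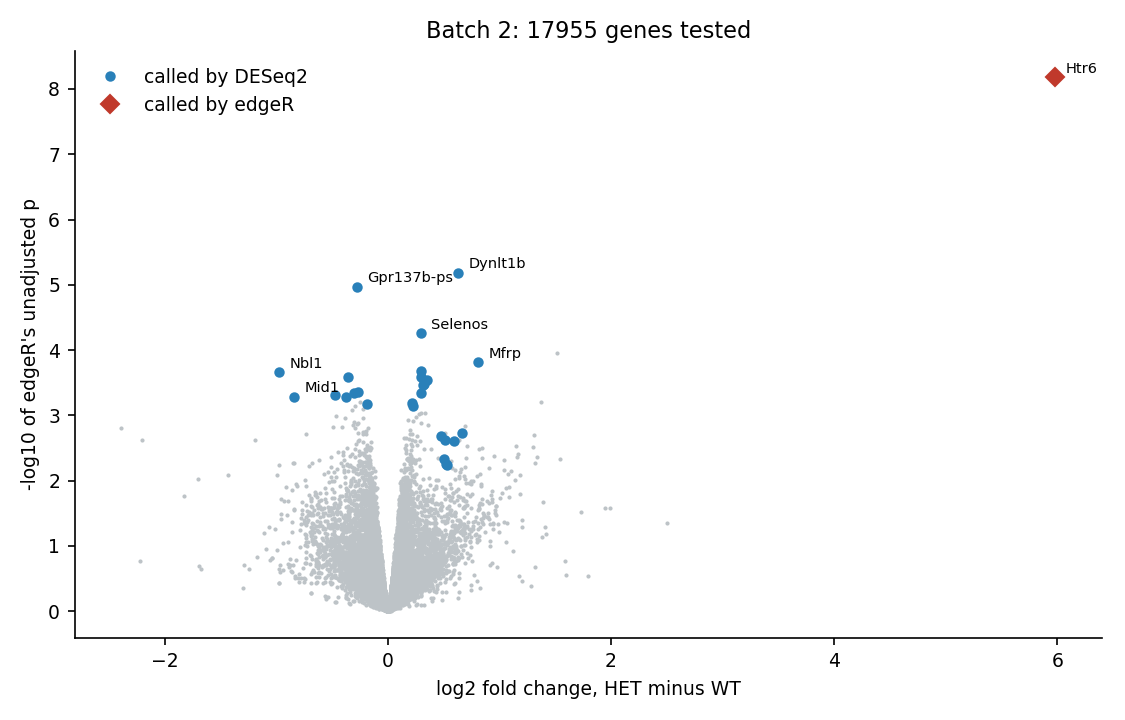
Log2 fold change of HET against WT (horizontal axis) and minus log10 of the unadjusted edgeR p (vertical axis) for each of the 17955 tested genes of batch 2. Htr6 lies at 5.98, and the 27 genes that DESeq2 called, Nbl1 among them, lie within 1 log2 unit of 0.

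Dynlt1b and Gpr137b-ps kept their DESeq2 call in all 12 fits that left out 1 library, Nbl1 and Selenos in 11, Mid1 in 9, and the other 22 genes in 2 to 8. Dynlt1b encodes a light chain of the dynein motor (chromosome 17, 6430112 to 6436296, plus strand). It stood at 20.1, 20.2, 25.3, 18.7, 27.7, 25.5 and 26.8 CPM in HET replicates 1 to 7 and at 15.4, 14.1, 14.3, 15.9 and 16.1 CPM in WT replicates 1 to 5. All HET libraries lay above all WT libraries. The log2 fold change of 0.63 (SE 0.10) had an adjusted p of 0.0584 by edgeR and 1.19e-05 by DESeq2. Dynlt1b has near copies beside it, between which shared reads may be split. Chosen after its values were seen, this family gave log2 fold changes of 0.22 for Dynlt1a, 0.17 for Dynlt1c and -0.05 for Dynlt1f, none with an unadjusted p under 0.05.

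Gpr137b-ps, a transcribed pseudogene copy of the lysosomal membrane protein gene Gpr137b, was lower in every HET library. It ranged from 51.4 to 55.7 CPM in HET with a median of 52.9. WT replicates 1 to 5 stood at 66.6, 66.1, 57.3, 67.5 and 65.0 CPM, and WT replicate 3 was thus nearest to the HET libraries. The log2 fold change was -0.28 (SE 0.05, adjusted p 0.0639 by edgeR, 0.000117 by DESeq2). Gpr137b itself, looked up after these values were seen, stood at -0.04 (SE 0.05).

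Mid1, a microtubule-bound ubiquitin ligase gene on the X chromosome that spans the edge of the pseudoautosomal region in laboratory mice, was called lower by DESeq2 (adjusted p 0.0283; 0.483 by edgeR). It ranged from 16.2 to 27.02 CPM in HET, and WT replicates 1 to 5 stood at 33.5, 41.3, 28.0, 48.7 and 25.9 CPM. HET replicate 6 lay above WT replicate 5 and all other HET libraries below all WT libraries. On the log2 scale Mid1 stood at -0.84 (SE 0.17), but at 0.12 (SE 0.28) in batch 1. The pseudogene Mid1-ps1, looked up afterwards, stood at -2.20 (SE 0.56) and at -1.58 in batch 1, with 4 to 94 counts in HET libraries and 123 to 283 in WT libraries. Reads of these copies may be split between them.

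Among the genes that DESeq2 called higher, several encode parts of the endoplasmic reticulum. Selenos, a membrane selenoprotein of the pathway that removes misfolded proteins, stood at 28.6 to 35.1 CPM in HET and 25.7 to 29.1 CPM in WT, where HET replicate 4 alone fell inside the WT range. Its log2 fold change was 0.29 (SE 0.06, DESeq2 adjusted p 0.00276, edgeR adjusted p 0.249). Dnajb11, a co-chaperone of the lumen, stood at 84.4 to 110.0 CPM against 74.5 to 83.7 CPM, with no overlap (log2 fold change 0.30). Hyou1, a large chaperone of the same compartment, stood at 121.0 to 232.1 CPM against 113 to 129 CPM (log2 fold change 0.50). The last 2 had the same adjusted p of 0.0494 by DESeq2 and did not pass by edgeR. On the TPM scale, where the median over all genes was -0.11, HET replicate 4 lay below every WT library for Selenos, Dnajb11 and Hyou1. For Dnajb11 it stood at 58.79 TPM against 64.2 to 71.27 TPM in WT.

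Mfrp, a membrane protein with a frizzled-like domain known from the eye, had the highest fold among the genes that DESeq2 called higher. Its counts were low, 49 to 69 in HET libraries and 33 to 46 in WT libraries. The groups did not overlap at 1.22 to 1.85 CPM and 0.764 to 1.04 CPM. On the TPM scale they overlapped, at 0.41 to 0.66 in HET and 0.28 to 0.66 in WT. The log2 fold change was 0.81 (SE 0.17, DESeq2 adjusted p 0.0283). Clrn3, a 4-pass membrane protein of the clarin family, stood at 42.7 to 56.2 CPM in HET and 33.7 to 44.0 CPM in WT (log2 fold change 0.35, DESeq2 adjusted p 0.0430). Its ranges overlapped where HET replicate 2 lay below WT replicate 4.

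The remaining genes that DESeq2 called higher had adjusted p values of 0.0430 to 0.0494. Among transport and metabolic genes the log2 fold change was 0.53 for the bile acid transporter Slc10a2, 0.53 for the peroxisomal acyltransferase Acnat2, 0.22 for the sterol demethylase Cyp51 and 0.23 for the mitochondrial peptidase Immp1l. Cyp51 stood at 176 to 218 CPM in HET and 154 to 176 CPM in WT, and its groups did not overlap. Among regulators it was 0.60 for the zinc finger factor Klf11 and 0.32 for the nephron patterning factor Irx1. It was 0.47 for Cdr2, known as an autoantigen of the cerebellum, 0.33 for Susd3, 0.30 for Tmem254a and 0.30 for Gm36958. Tmem254a also has copies, and after these values were seen Tmem254c was found at 4.96 to 43.6 CPM in HET libraries but at 32.6 to 38.0 CPM in WT libraries, with HET replicate 3 lowest.

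The mitochondrial transcripts mt-Nd6 and mt-Rnr2 were also called higher by DESeq2 (adjusted p 0.0494 for each). mt-Nd6, a complex I subunit whose mRNA is copied from the other strand than those of the remaining subunits, stood at 256 to 389 CPM in HET and 128 to 250 CPM in WT without overlap (log2 fold change 0.66). mt-Rnr2, the large ribosomal RNA of mitochondria, stood at 0.51. The mitochondrial protein-coding share of all counts was 9.27% ± 1.04 (SD, n = 7) in HET and 9.32% ± 1.01 (SD, n = 5) in WT, a log2 difference of -0.0076 (exact permutation p = 0.929). All counts here include the ribosomal RNA CT010467.1, described below. With it taken out of the total, the share was 9.57% to 12.3% in HET and 8.98% to 11.5% in WT, which was not tested.

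On the lower side, beside Nbl1, Mid1 and Gpr137b-ps, DESeq2 called 6 genes with adjusted p values of 0.0371 to 0.0494. Col5a3, a collagen V chain gene, stood at 6.28 to 9.06 CPM in HET and 8.48 to 11.8 CPM in WT (log2 fold change -0.47). Airn, the noncoding RNA that overlaps Igf2r in antisense, stood at -0.38, and BC024386, a processed transcript, at -0.35. The guanylate-binding protein gene Gbp9 stood at -0.30, the semaphorin gene Sema6d at -0.27 and Supt20, for a part of the SAGA coactivator complex, at -0.19. In Airn, BC024386, Sema6d and Supt20 the groups did not overlap. Next in order of p, and called by neither test, were Mga (0.19) on the higher side and Mlxipl (-0.24), Hjurp (-0.21) and Mtss2 (-0.29) on the lower side.

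**Figure D3:**
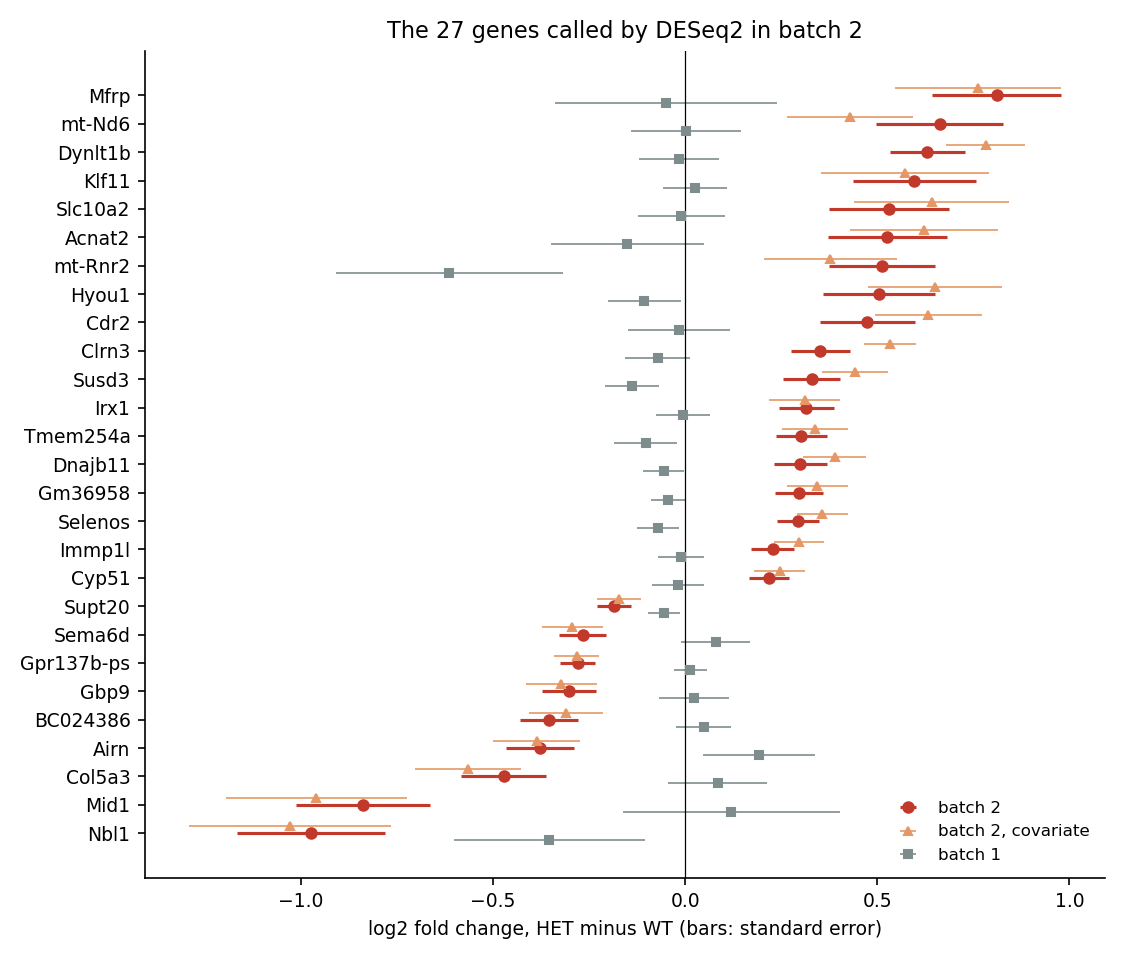
Log2 fold change of HET against WT with its standard error (horizontal axis) for the 27 genes that DESeq2 called, by edgeR in batch 2 (circles), in batch 2 with the CT010467.1 share as a covariate (triangles) and in batch 1 (squares). Signs are kept with the covariate in 27 of 27 genes, which their choice in the same libraries favours. The batch 1 values share the sign of batch 2 in 4 of 27.

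A single ribosomal RNA gene took a large and variable share of the counts. CT010467.1 (ENSMUSG00000106106, chromosome 17, 39846353 to 39848827, minus strand) is annotated as ribosomal RNA, which carries no poly(A) tail, and its share in batch 1 libraries was at most 0.198%. In batch 2 it took 12.7%, 14.4%, 7.17%, 18.04%, 8.32%, 16.6% and 7.97% of the counts in HET replicates 1 to 7. In WT replicates 1 to 5 it took 11.6%, 7.43%, 6.38%, 5.07% and 4.94%. HET replicates 1, 2, 4 and 6 lay above all WT libraries, and the other 3 HET libraries lay inside the WT range. The means were 12.2% ± 4.41 (SD, n = 7) and 7.07% ± 2.71 (SD, n = 5), and the log2 difference was 0.77, or 1.71-fold. The exact two-sided permutation p was 0.0366, and 0.0732 after adjustment over the 6 measures. Leaving out any of HET replicates 1, 2, 4 and 6 or of WT replicates 3, 4 and 5 put the unadjusted p above 0.05, to 0.0541 up to 0.0758. Without the counts of CT010467.1 the libraries held 29817738 to 40533085 counts in HET and 35474403 to 47509496 in WT.

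**Figure D4:**
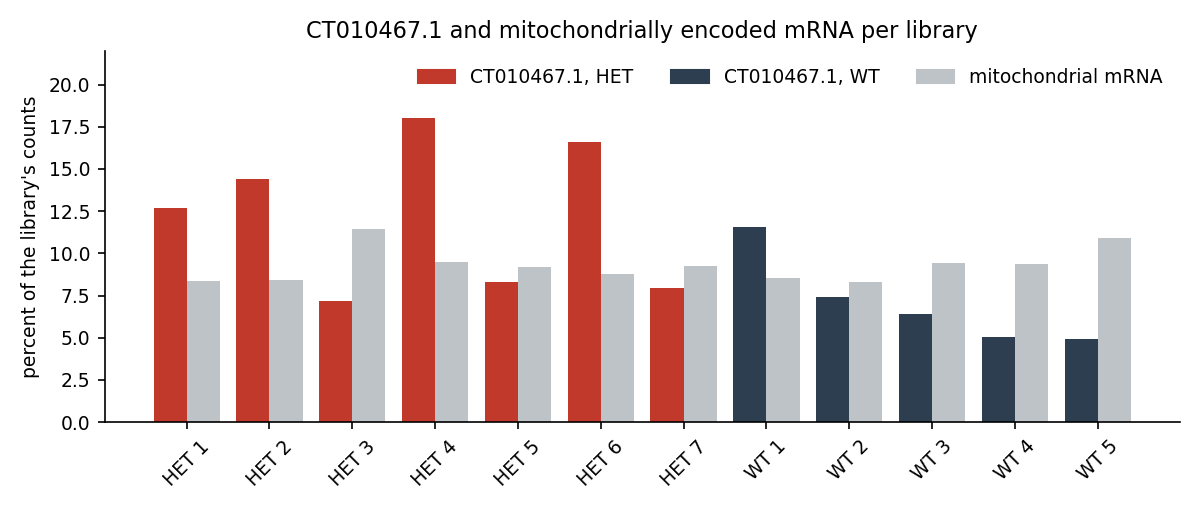
Percent of each library's counts taken by CT010467.1 (red for HET, dark blue for WT) and by mitochondrial protein-coding genes (grey) in the 12 kidneys. HET 4 and HET 6 have the largest CT010467.1 shares at 18.04% and 16.6%, while the mitochondrial share shows no such split.

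With genotype held in the model, 30 genes (0.167%) followed the share of CT010467.1 by edgeR's quasi-likelihood test, 28 upward and 2 downward. One of them is CT010467.1, which makes up the share and had to follow it, which leaves 29 others, 27 upward and 2 downward. Counts assigned to Lars2, the mitochondrial leucyl-tRNA synthetase gene, had a slope of 1.247 log2 units per doubling of the share (SE 0.10). They ranged from 2627 to 10140 CPM in HET and 1726 to 4450 CPM in WT. Whether they come from Lars2 mRNA was not tested. The small mitochondrial ribosomal RNA mt-Rnr1 had a slope of 0.80 and the nuclear RNA Rn7sk, which binds the elongation factor P-TEFb, a slope of 0.97. Of the 30, 12 are of a biotype kept for unverified models, 3 are long intergenic RNAs and 9 are protein coding. Besides CT010467.1, 7 of 8 tested RNAs without a poly(A) tail lay above 0 for HET against WT, with a median of 0.62. Of the 8, 4 were higher at an unadjusted p under 0.05, where 4.07% of all genes were. With the share as a covariate 3 of the 8 lay above 0, the median was -0.06 and 0 had an unadjusted p under 0.05. Rn7s1 and Rn7s2, signal recognition particle RNAs whose values were identical in every summary, each stood at 0.97 without the covariate and 0.15 with it.

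With the CT010467.1 share as a covariate, edgeR called 4 genes (0.0223%), all higher in HET. Htr6 stood at 6.32 (adjusted p 0.000461), Clrn3 at 0.53 (0.00522) and Dynlt1b at 0.78 (0.00575). Dynll1, another dynein light chain gene, stood at 0.54 with an adjusted p of 0.0226. Without the covariate Dynll1 had been at 0.26, at 35.2 to 52.3 CPM in HET and 29.6 to 41.4 CPM in WT. With each of the 12 libraries left out in turn Htr6 was called in all 12 fits, Clrn3 and Dynlt1b in 10 and Dynll1 in 6. The count of calls was 1 without HET replicate 3, 2 without HET replicate 7 or WT replicate 1, 8 without HET replicate 1, 14 without HET replicate 2 and 42 without HET replicate 6.

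All 27 genes that DESeq2 had called kept their sign with the covariate and had an unadjusted p under 0.05 by edgeR's quasi-likelihood test, and 20 of them had a larger fold. They were chosen for a small p in the same libraries, so their sign and p with the covariate were largely set beforehand. Over all genes 12.4% had an unadjusted p under 0.05 in that fit, against 8.27% without the covariate. The share of all genes with a larger fold was not computed. Nbl1 moved from -0.97 to -1.03. The 2 mitochondrial RNAs shrank, mt-Nd6 from 0.66 to 0.43 and mt-Rnr2 from 0.51 to 0.38. Col4a5 moved from -0.18 to -0.35 with an adjusted p of 0.160. The part that the CT010467.1 share has in any single difference was not tested beyond this model.

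The BMP pathway showed few differences beside Nbl1 in the fit without the covariate. Of 16 tested members of the BMP antagonist list 10 lay above 0 and 6 below. At an unadjusted p under 0.05, 1 was higher and 2 were lower. The lower members were Nbl1 and Kcp, which is on the list but enhances BMP signals. The background over all genes was 4.07% higher and 4.2% lower. For the fit without the covariate, these shares and the median of 0.0002 over all genes are the values against which every list below stands. With the covariate 12.4% of all genes had an unadjusted p under 0.05, 1176 higher and 1046 lower, with a median of -0.005. Counts and medians of lists with the covariate stand against these larger shares. Without HET replicates 4 and 6, 547 of 17792 genes were higher and 565 lower at that p, with a median of -0.0065. Shares over all genes are not given for fits with 1 library left out. A changed list count in those fits thus has no background to stand against. Sostdc1, an antagonist of BMP and Wnt ligands, stood at 38.3 to 48.5 CPM in HET and 32.95 to 41.8 CPM in WT (log2 fold change 0.22, SE 0.07, DESeq2 adjusted p 0.254). Kcp, a chordin-like protein that enhances BMP signals, stood at 4.30 to 7.67 CPM and 6.34 to 9.35 CPM (-0.39, SE 0.13). Among 22 ligands, receptors and receptor Smads only the coreceptor gene Rgma reached an unadjusted p under 0.05, at -0.39 (SE 0.14). With the covariate 3 members of the antagonist list were higher and 4 lower at that p. Of the ligands, receptors and receptor Smads 0 were then higher and 2 lower.

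All 11 tested BMP target genes had log2 fold changes below 0 in HET, with a median of -0.17 (-0.10 without WT replicate 1 and -0.28 with the covariate), and 1 of them had an unadjusted p under 0.05. That gene was Id3, an inhibitor of differentiation factors, at 9.77 to 22.7 CPM in HET and 17.8 to 29.0 CPM in WT (log2 fold change -0.49, SE 0.20, DESeq2 adjusted p 0.439). Its close relative Id1 stood at -0.41 (SE 0.21). The count of 1 was 0 without HET replicate 4 or 6 or WT replicate 1 or 2, 2 without WT replicate 4 or 5 and 3 without HET replicate 1. No member was called by edgeR or DESeq2, and in batch 1 the median of the list was 0.09. Of 19 TGF-beta ligands, receptors and targets 14 lay below 0, with Snai2 at -0.45 the only member with an unadjusted p under 0.05.

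Glomerular and basement membrane genes lay slightly lower in HET. Of 27 tested collagen IV and basement membrane genes 22 were below 0 with a median of -0.10, and 7 were lower and 0 higher at an unadjusted p under 0.05. The laminin chain gene Lama1 stood at 26.1 to 31.0 CPM in HET and 31.5 to 34.4 CPM in WT without overlap (log2 fold change -0.20, SE 0.05). Pxdn, the peroxidase that crosslinks collagen IV, stood at -0.20 and the laminin chain gene Lama5 at -0.23. None passed the adjusted threshold, with a DESeq2 adjusted p of 0.136 for Lama1. The count of lower members ranged from 4 to 10 with 1 library left out, with 4 when WT replicate 2 was left out.

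Of 15 mesangial, smooth muscle and renin cell genes 13 lay below 0 with a median of -0.14, and 3 had an unadjusted p under 0.05 (6 without WT replicate 5). Rgs5, a pericyte regulator of G protein signals, stood at 63.7 to 74.9 CPM in HET and 76.4 to 92.0 CPM in WT without overlap (log2 fold change -0.17, SE 0.05). Itga8, the mesangial integrin chain gene, stood at -0.15 and the pericyte proteoglycan gene Cspg4 at -0.26. Podocyte genes lay below 0 in 19 of 22 with a median of -0.07 and 2 at an unadjusted p under 0.05, Tcf21 (-0.25) and Nes (-0.11). That count was 0 without HET replicate 4 and 1 without HET replicate 1 or 5 or WT replicate 1, 2 or 4. In bulk tissue, fewer cells of a type and less RNA per cell cannot be told apart. Interstitial matrix genes, which mark fibrosis, lay below 0 in 24 of 30, with a median of -0.08, and Mmp2 (-0.29) was the only member with an unadjusted p under 0.05. With the covariate the median was -0.04, and 2 members were higher and 0 lower at that p. Without WT replicate 5 the median was -0.16 with 4 lower, and without WT replicate 4 it was -0.03 with 1 higher and 0 lower. The count of lower members was also 0 without HET replicate 3, 4, 6 or 7 or WT replicate 2 or 3. No tubular injury gene of 21 reached that level, and their first member by p, the cell cycle inhibitor gene Cdkn1a, stood at 0.32 (SE 0.17).

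Chaperones and stress genes of the endoplasmic reticulum lay mostly above 0. Of 31 tested members 28 lay above 0 with a median of 0.24, and 18 were higher and 0 lower at an unadjusted p under 0.05. DESeq2 called 3 of them, Selenos, Dnajb11 and Hyou1, and edgeR 0. Dnajc3, an inhibitor of the stress kinase PERK, was next at 186 to 232 CPM in HET and 170 to 197 CPM in WT (log2 fold change 0.22, SE 0.06). The count of higher members was 15 to 22 with 1 library left out, 18 without HET replicates 4 and 6 and 22 with the covariate. By library, the mean of the list on the log2 scale was highest in HET replicates 7 (0.40 above the mean of the 12 libraries), 6 (0.25) and 3 (0.16). HET replicate 4, at -0.15, lay within the WT range of -0.19 to -0.10.

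Cytosolic heat shock genes lay above 0 in 14 of 14 with a median of 0.31, and 5 were higher at an unadjusted p under 0.05. The lens and muscle chaperone gene Cryab stood at 65.0 to 107 CPM in HET and 63.6 to 74.8 CPM in WT (log2 fold change 0.29). Hsp90aa1, the inducible form of the chaperone HSP90, stood at 0.45 and its constitutive partner Hsp90ab1 at 0.27. With 1 library left out the count was 0 without WT replicate 2, 1 without WT replicate 1, 2 without HET replicate 3, 3 without HET replicate 5, 6 or 7 or WT replicate 3, and 8 without HET replicate 2. It was 12 with the covariate. HET replicates 3, 5, 6 and 7 were high, and HET replicates 1, 2 and 4 lay among the WT libraries.

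Immediate early genes, which respond within minutes to stimuli and to handling of tissue, lay above 0 in 15 of 17 with a median of 0.40. Only 2 were higher and 1 lower at an unadjusted p under 0.05, and 0 in either direction with the covariate. Fosb stood at 0.400 to 16.0 CPM in HET with a median of 0.682 and at 0.208 to 0.788 CPM in WT, so that HET replicate 6 carried its log2 fold change of 2.51. Egr3 stood at 0.91 and was highest in the same library at 3.73 CPM. Myc went the other way at -0.29. The count of 2 was 0 without HET replicate 4, HET replicate 6 or any 1 of the 5 WT libraries, 1 without HET replicate 3, 4 without HET replicate 1, 5 without HET replicate 5 and 7 without HET replicate 2.

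**Figure D5:**
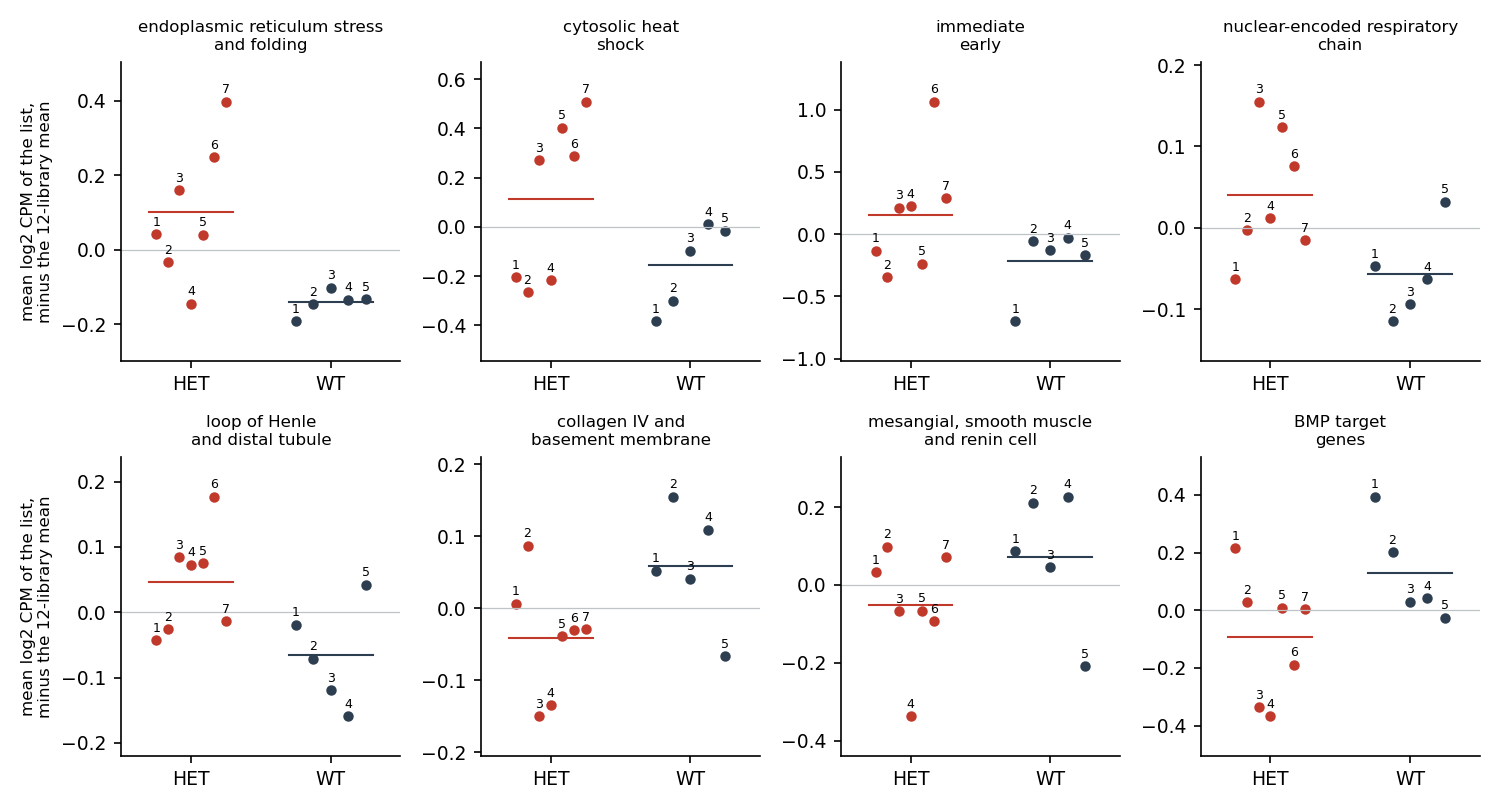
Mean log2 CPM of 8 gene lists in each of the 12 kidneys, given as the difference from the mean of all 12 (vertical axis, log2 units, scales differ between panels). Points carry replicate numbers and lines are group means. In the endoplasmic reticulum panel HET 7 is highest at 0.40 and HET 4 lies among the WT kidneys, and in the immediate early panel HET 6 stands apart at 1.065.

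All 40 tested nuclear-encoded respiratory chain genes lay above 0 with a median of 0.10, and 15 were higher at an unadjusted p under 0.05, although on the TPM scale 38 of the 40 lay below 0. On that scale the median over all genes was itself shifted to -0.11, which is below the list's median of -0.06. Cox7a2, a subunit of cytochrome oxidase, stood at 127 to 162 CPM in HET and 120 to 140 CPM in WT (log2 fold change 0.15). The complex I subunit gene Ndufs3 stood at 0.13. The count of 15 fell to 6 without HET replicate 3 or HET replicate 5, 5 without WT replicate 2, 7 without WT replicate 3 and 9 without WT replicate 4 or the 2 HET replicates 4 and 6. It was 21 with the covariate. The 13 mitochondrially encoded genes all lay above 0 with a median of 0.23, and mt-Nd6 was the only 1 with an unadjusted p under 0.05. Their median was 0.13 without HET replicate 4, 0.15 without WT replicate 2 and 0.08 without HET replicates 4 and 6. Without WT replicate 5 it was 0.38 and 5 members had an unadjusted p under 0.05, and without HET replicate 2 there were 2 such members. On the TPM scale 8 of these 13 lay above 0.

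Cholesterol synthesis genes lay above 0 in 16 of 17 with a median of 0.12 (-0.01 on the TPM scale), and 4 were higher at an unadjusted p under 0.05. After Cyp51 came Sqle, the squalene epoxidase gene, at 80.3 to 95.2 CPM in HET and 75.8 to 81.4 CPM in WT (log2 fold change 0.18, DESeq2 adjusted p 0.0668). Msmo1, a later step of the pathway, stood at 0.18. Of 25 fatty acid oxidation genes and PPAR-alpha targets 20 lay above 0, and the lipase inhibitor gene Angptl4 was the only member with an unadjusted p under 0.05, at 21.9 to 64.3 CPM in HET and 16.0 to 23.3 CPM in WT (log2 fold change 0.84, SE 0.28). The count of 1 was 2 without HET replicate 4 or WT replicate 1, 2 or 4, 3 without HET replicate 1 or 5 and with the covariate, and 4 without HET replicate 2 or 7. Pdk4, which restrains glucose oxidation, stood at 0.76 (SE 0.35).

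Along the nephron, 15 of 19 loop of Henle and distal tubule genes lay above 0 with a median of 0.11 (-0.03 on the TPM scale), and 4 were higher at an unadjusted p under 0.05. Umod stood at 3073 to 3853 CPM in HET and 2802 to 3071 CPM in WT without overlap (log2 fold change 0.17, SE 0.06, DESeq2 adjusted p 0.195). On the TPM scale its ranges overlapped, at 1780 to 2455 in HET and 1855 to 2175 in WT, with medians of 2016 and 2013. The potassium channel gene Kcnj1 stood at 0.18 and the magnesium channel gene Trpm6 at 0.29. The count of 4 was 2 with the covariate and without HET replicate 3 or WT replicate 4, and 8 without HET replicate 1. Proximal tubule genes were split, 15 above and 11 below 0 of 26, with 2 in each direction at an unadjusted p under 0.05. The higher count was 0 without WT replicate 3 and 1 without HET replicate 3, 5 or 6 or WT replicate 1 or 2. The lower count was 5 without WT replicate 3, 0 without WT replicate 1, 2 or 5, and 1 without HET replicate 4, 6 or 7 or WT replicate 4. First among them by p were the urea cycle gene Ass1 (-0.14), the glucose transporter gene Slc5a1 (0.19) and the transcription factor gene Hnf4a (0.13). In the collecting duct 3 of 18 were higher at that level, among them the sodium channel gene Scnn1a (0.17) and the proton pump subunit gene Atp6v1g3 (0.22). That count was 0 without WT replicate 4 and 1 without HET replicate 3 or WT replicate 2. Endothelial genes had a median of -0.0008 over 17, with Esam at 0.20 and Cdh5 at -0.12.

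No macrophage, T and NK cell, B and plasma cell, neutrophil or interferon gene reached an unadjusted p under 0.05, over 23, 14, 11, 6 and 21 tested members, although 20 of the 23 macrophage and 19 of the 21 interferon genes lay below 0. With the covariate this turned, with 14 of the 23 and 11 of the 21 above 0. With 1 library left out at most 1 macrophage, 1 interferon and 2 neutrophil genes reached it. In cell cycle genes 20 of 23 lay below 0 with a median of -0.19 (-0.01 with the covariate), and 3 were lower at that level (1 with the covariate), led by the mitotic kinase gene Aurka (-0.67) and the nucleotide reductase gene Rrm2 (-0.22). The count of 3 was 8 without WT replicate 1, 6 without HET replicate 7 and 1 without HET replicate 2, 3, 4 or 6 or WT replicate 2, 3, 4 or 5. Of 16 clock genes 2 were higher and 1 lower at that level, and Cry1 stood at 0.36 and Nr1d1 at -0.17. With 1 library left out 0 to 3 clock genes were higher and 0 or 1 lower. In the NRF2 antioxidant list 13 of 15 lay above 0 and 2 were higher at that level, where Gclc, the rate-limiting enzyme of glutathione synthesis, stood at 207 to 589 CPM in HET and 196 to 280 CPM in WT (log2 fold change 0.73, SE 0.24), and Gsta3 at 0.22. Of the sex-biased genes the cytochrome gene Cyp4b1 stood at -0.21 (SE 0.06).

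Markers of fat and blood also differed between the libraries. All 12 tested adipose genes lay below 0 with a median of -0.76, and 0 had an unadjusted p under 0.05, with Adrb3 at -1.04 and Plin1 at -1.05. The summed level of the adipose list was 96.0 to 432 CPM in HET and 107 to 474 CPM in WT, here scaled by all counts of a library. Its lowest libraries were WT replicate 5 and HET replicate 4. All 6 erythrocyte genes lay above 0, with a median of 0.50 and again 0 at that p, and Hbb-bt stood at 0.73 (SE 0.35). Without WT replicate 5 the erythrocyte median was 0.80 with 4 genes at that p, and 2 adipose genes reached it. The erythrocyte median was 0.28 without HET replicate 6, and the adipose median was -1.24 without HET replicate 1, with 1 gene at that p, and -0.45 without HET replicates 4 and 6. What part these markers have in the other differences was not tested.

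The kidneys of batch 1 come from other mice of the same design and share no control with batch 2. In them Nbl1 had a log2 fold change of -0.35 (SE 0.25), and edgeR called 0 of 18494 genes, with 522 at an unadjusted p under 0.05 and a smallest adjusted p of 0.151. There 3 libraries go against their labels in Nbl1 and Htr6: the library labelled HET replicate 6 had 299 Nbl1 and 0 Htr6 counts, and those labelled WT replicates 1 and 2 had 26 and 14 Htr6 counts. Of the 27 genes that DESeq2 called in batch 2, 4 had the same sign in batch 1 and 0 had an unadjusted p under 0.05 there. Without the 3 libraries 10 of the 27 had the same sign. Nbl1 then stood at -0.82 and Htr6 at 5.27 in batch 1, values that the choice of those libraries by these 2 genes favours. Over 1462 genes with an unadjusted p under 0.05 in batch 2 that were tested in both, 36.6% had the same sign in batch 1, where 44.3% of all 17407 genes did, and these shares were 40.4% and 46.7% without the 3 libraries.

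The interaction of genotype with batch, the direct test of that difference, called 0 of 19476 genes by edgeR, with 1531 at an unadjusted p under 0.05 and a smallest adjusted p of 0.403. Without the 3 libraries edgeR's interaction test called 0 of 19738 genes, with 1313 at an unadjusted p under 0.05 and a smallest adjusted p of 0.7015. With all 24 libraries, 26 of the 27 genes had an unadjusted interaction p under 0.05, which the choice of these genes on 1 of the batches favours. In the endoplasmic reticulum list the batch 1 median was -0.06, in the heat shock list -0.03, in the respiratory chain list -0.02 and in the basement membrane list 0.02. For immediate early genes it was 0.82.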

How the data were processed

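Bulk RNA-seq of 24 kidneys was analysed from 1 deposited table of 55487 genes, and the comparison used the 7 HET and 5 WT libraries of batch 2. Per the submitters' processing notes, fastp, STAR and featureCounts were used with GRCm38/mm10, with no role or version given. The authors deposited estimated counts, TPM and FPKM per gene. In each library 11.8% to 15.4% of the deposited counts had a fraction, for which no source used here states a reason, and all were rounded. TPM served for levels between genes and as an alternative scale, and the deposited FPKM values were used only to compare the length scaling. Gene models came from GENCODE M21, which held 55141 of the identifiers.

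Genes passed edgeR's filterByExpr at a minimum count of 10 (17955 genes). Counts were scaled by TMM and tested with edgeR 4.0.16 (robust quasi-likelihood, R 4.3.3), with Benjamini-Hochberg adjustment over all genes and a threshold of 0.05. The log2 percent of counts taken by CT010467.1 was a covariate in a second fit. Alternatives were DESeq2 1.42.0, limma 3.58.1 (voom, and trend on log2 of TPM + 1), RLE scaling, no filter, a minimum count of 50, a fit that is not robust, a table without CT010467.1, all 24 libraries, and each library left out. Added after seeing the data were leaving out HET replicates 4 and 6, TPM rescaled without CT010467.1, DESeq2 and covariate fits with a library left out, and batch 1 without 3 libraries. Single measures had an exact two-sided permutation test over 792 assignments. The scripts were tested on simulated data.

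Genes were named by a rule: Nbl1, Htr6, Col4a5 and CT010467.1, genes called by edgeR or DESeq2, the first 12 by p on each side among genes averaging 1 CPM or more, tested genes within 500 kb of Nbl1, and up to 3 members of smallest p and 1 of highest level per list. Named outside it, after their values were seen, were near copies of called genes, genes that followed the CT010467.1 share, and Plin1 as a tissue marker. The members and the 38 lists were chosen with earlier results of these data known. No list has a test. Counts and medians of lists are read against those of all genes, given once for each fit where they are known. They are not given for fits with 1 library left out. The labels name a separate animal for each library, and no 2 replicates of a group agreed within counting noise over 31 pairs. The p-values set a difference between groups against the spread between these samples. The precision of low genes is limited by 36380404 to 50746710 counts per library, and intervals and floors cover counting error only.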

Additional observations from a re-analysis of the deposited data

Results flagged for a closer look

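Each value in the following sentences stood apart from the rest of its group in the gap to the nearest library divided by the range of the group. This was met by 17 of 184 groups of values looked at (9.24%), where chance gives about 1 in 20, and no cause was tested.

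HET replicate 3 had the highest mitochondrial protein-coding share of the HET libraries (11.42%), and in it the sodium channel gene Scnn1a stood at 95.65 CPM and the proton pump gene Atp6v1g3 at 26.09 CPM, both highest. HET replicate 6 was highest for the immediate early genes Fosb (15.99 CPM) and Egr3 (3.729 CPM). HET replicate 2 was lowest for Tmem254a (16.01 CPM) and highest for Pla2g5 (6.969 CPM). The pericyte gene Rgs5 was lowest in HET replicate 4 (63.69 CPM) and, in the other group, highest in WT replicate 4 (91.99 CPM). Umod was highest in HET replicate 5 (3853 CPM) and Ass1 lowest in HET replicate 7 (1787 CPM).

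Among WT libraries, replicate 3 was the only one with Htr6 (0.03678 CPM, from 2 counts) and was lowest for Gpr137b-ps (57.31 CPM). WT replicate 1 was lowest for Cdr2 (34.8 CPM) and highest for the clock gene Nr1d1 (53.07 CPM). WT replicate 5 was lowest for the mesangial gene Itga8 (25.12 CPM) and highest for the globin gene Hbb-bt (37.61 CPM).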

How the results depend on the processing

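The edgeR count of 1 called gene was 3 with no filter, 0 at a minimum count of 50 (where Htr6 is not tested), 4 with the covariate, 5 over all 24 libraries, 2 without HET replicates 4 and 6, 0 on the TPM scale and 0 on TPM rescaled without CT010467.1, against 27 with DESeq2. It ranged from 1 to 3 with a library left out. Htr6 lost its call over all 24 libraries (log2 fold change 5.96) and on both TPM scales (0.53 and 0.58 on log2 of TPM + 1, a scale that understates low genes). DESeq2 counts ranged from 5 to 95 and covariate counts from 1 to 42 with a library left out. The log2 difference in the CT010467.1 share ranged from 0.6597 to 0.9661. Batch 1 had 2 calls without the 3 libraries, which were Htr6 and Nbl1, the genes that chose those libraries.

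On the TPM scale the median over all genes moved to -0.11 and only 2.23% of genes with an unadjusted p under 0.05 were higher in HET, against 49.2% in the TMM fit and 70.3% over all 24 libraries. Hnf4a (-0.0173), Cox7a2 (-0.0223), Ndufs3 (-0.0364) and Msmo1 (-0.01) changed sign there. Of 2130 alternative values of 89 named genes, 2081 kept their direction and their side of the threshold. This was largely set beforehand, because most of these genes were chosen by p in the libraries that the alternatives reuse. A gene called in neither fit also counts as keeping its side, and the main fit called only Htr6. Of 910 list medians, 875 moved by less than the spread within groups. Of the 35 that moved further, 19 of 38 lists did so on the TPM scale and 12 on TPM rescaled without CT010467.1. No paired analysis was possible because the labels give no replicate numbers shared by groups. Low counts limit Htr6 and Mfrp.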
